A study of Mus musculus
Mus spretus with 18 samples.

Results

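Large splicing differences between the parental alleles were described for 1037 exon-skipping events of F1 hybrid mice, out of 66347 autosomal events with enough allelic reads in at least 1 tissue (1.56%). The hybrids had a C57BL/6J mother, a laboratory strain, and a SPRET/EiJ father, a wild-derived strain of Mus spretus, so both alleles of a gene were read in the same library. An event is an internal exon with its neighbouring exons, and its percent spliced in (PSI, here from 0 to 1) is the share of transcripts that keep the exon, computed from junction reads and the lengths over which each form can be read. The events were chosen by their measured allelic PSI. An event was taken where, in at least 1 tissue, each allele had 20 or more reads in each of 2 replicates, the mean PSI of the alleles differed by 0.3 or more, and both replicates of one allele lay above both of the other. The tissue differences are therefore given as a description without a test. The events lay in 821 genes and comprised 983 distinct exons, or 929 sets of exons that do not overlap. Counts of exons below are counts of events, except where exon lengths are described. Events that overlap or have an exon in common share reads and are not independent. All coordinates below are from mm10 and count from 1.

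Cortex, heart, kidney, lung, spleen and liver came from female hybrids of 8 weeks, 2 libraries each. By the study's account the organs were taken from the same 2 animals, so tissues are not separate animals, and counts over tissues share them. The labels do not tie a library to an animal. The embryonic stem cells (ESC) were 2 separate clones. Liver data came from an earlier study of the same animals, and the strain labels of its libraries read C57BL/7J and C57BL/8J. Hybrid fibroblasts of 1 cell line received DMSO, the solvent, or 0.1 µM pladienolide B, an inhibitor of the splicing factor SF3B1, for 4 h, in 2 libraries each. Allelic junction reads summed to 10338947 to 46793808 per allele and library in tissues and 27056558 to 48555783 in fibroblasts, with 48.3% to 52.1% and 53.1% to 53.8% on the C57BL/6J allele. Of 32 marker genes, 31 had their highest TPM in the labelled tissue; Thy1 was the exception, being higher in cortex than in fibroblasts.

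Splicing of an internal exon depends on the splice sites at its ends, on the branch point and on enhancer and silencer motifs, which are read by proteins that differ between tissues. In a hybrid, each nucleus holds both alleles, and the PSI of each allele in a bulk library is an average over the cells of the sample. Skipping an exon whose length is a multiple of 3 keeps the reading frame where the exon is coding, whereas other lengths shift it.

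Heart had the highest share of such exons and ESC the lowest. The rule was met in cortex by 322 of 25042 events with enough reads (1.29%), in heart by 294 of 16684 (1.76%) and in kidney by 264 of 24802 (1.06%). Lung had 270 of 22047 (1.22%), spleen 275 of 21726 (1.27%) and liver 165 of 13594 (1.21%). ESC had 237 of 31421 (0.754%). Inclusion was higher on the C57BL/6J allele for 556 events and on the SPRET/EiJ allele for 481, and no event met the rule in both directions. The largest difference of an event over tissues had a median of 0.419, reached 0.5 in 319 events and 0.9 in 37. It was 1 in 3 events, of Havcr1, Serpina3f and Tcrg-C4, each readable in 1 or 2 tissues and named after their values were seen. Whether reads of these events were assigned to the right copy or allele was not tested. In 44 events one allele had a mean PSI of at most 0.1 and the other of at least 0.9 in the same tissue.

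The 10 leading genes, taken as those whose event met the rule in most tissues and then by mean difference, met it in every tissue. Tor1aip1, which encodes a protein of the inner nuclear membrane, was skipped on one allele and kept on the other, in an exon at chromosome 1, 156019968 to 156020023, minus strand, 56 nt. Its PSI was 0 to 0.00963 (median 0.00593, 14 libraries) on the C57BL/6J allele and 0.917 to 1 (median 0.994, 14 libraries) on the SPRET/EiJ allele. Pkp4, a plakophilin of cell junctions, went the other way in an exon at chromosome 2, 59305066 to 59305197, plus strand, 132 nt. There the C57BL/6J allele had 0.862 to 1 (median 0.982, 14 libraries) and the SPRET/EiJ allele 0 to 0.00290 (median 0, 14 libraries). The ranges of the alleles did not overlap in either gene.

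Mrps17, a protein of the small mitochondrial ribosomal subunit, gave 5 events that share a start and differ in the end of the exon, so they are not independent. For the shortest, at chromosome 5, 129715684 to 129715763, plus strand, 80 nt, the PSI was 0.919 to 1 (median 0.957, 14 libraries) on the C57BL/6J allele against 0.00166 to 0.0625 (median 0.0176, 14 libraries) on the SPRET/EiJ allele. Zscan21, a zinc finger transcription factor, had 0.947 to 1 (median 0.994, 14 libraries) on the C57BL/6J allele and 0.0289 to 0.133 (median 0.0721, 14 libraries) on the other, at chromosome 5, 138117836 to 138117920, plus strand, 85 nt. In Cdc26, a subunit of the anaphase-promoting complex, the values were 0.918 to 0.992 (median 0.953, 14 libraries) and 0.0265 to 0.183 (median 0.0834, 14 libraries), at chromosome 4, 62404456 to 62404552, minus strand, 97 nt. Mtif2, a mitochondrial translation initiation factor, spread more on the C57BL/6J allele, 0.529 to 1 (median 0.827, 14 libraries), while the SPRET/EiJ allele stayed at 0 to 0.0244 (median 0, 14 libraries). The exon of Mtif2 lies at chromosome 11, 29526693 to 29526843, plus strand, 151 nt.

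The remaining 4 genes had higher inclusion on the SPRET/EiJ allele. Atg7, an activating enzyme of autophagy, had 0 to 0.210 (median 0.0412, 14 libraries) on the C57BL/6J allele and 0.612 to 0.957 (median 0.739, 14 libraries) on the SPRET/EiJ allele, at chromosome 6, 114672791 to 114672843, plus strand, 53 nt. Rcbtb1, whose exon is listed in 3 chosen events with different neighbours, had 0.0222 to 0.258 (median 0.0921, 14 libraries) and 0.687 to 0.979 (median 0.845, 14 libraries), at chromosome 14, 59205625 to 59205722, plus strand, 98 nt. The values of 3830406C13Rik were 0.0481 to 0.293 (median 0.188, 14 libraries) and 0.687 to 0.970 (median 0.878, 14 libraries). For Aen, a nuclease induced by p53, they were 0.174 to 0.422 (median 0.295, 14 libraries) and 0.924 to 1 (median 0.970, 14 libraries), in an exon of 487 nt.

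**Figure D1:**
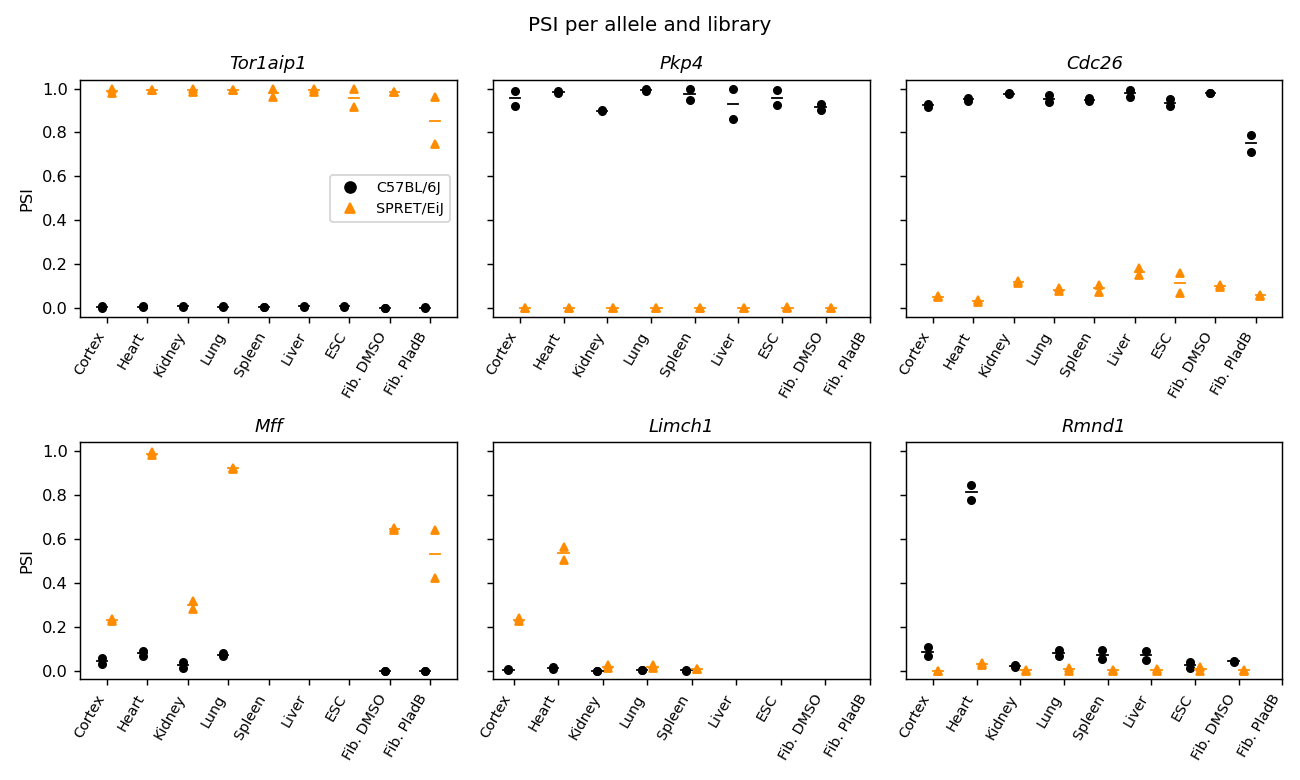
PSI (vertical axis, 0 to 1) of 6 exons in each tissue and in fibroblasts (horizontal axis), with circles for the C57BL/6J and triangles for the SPRET/EiJ allele of each library and short lines for the mean of 2 libraries. Groups without enough reads are blank; Tor1aip1, Pkp4 and Cdc26 are apart in every tissue shown, while Mff, Limch1 and Rmnd1 are far apart in some.

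Most exons met the rule in fewer tissues than they could be read in. Of the 1037 events, 706 met it in 1 tissue, 142 in 2, 71 in 3 and 25 in all 7. Of these, 267 had enough reads in 1 tissue only. Among the 770 events with enough reads in 2 or more tissues, 137 (17.8%) met the rule in each of them and 439 (57%) in 1. Where the rule was not met in a tissue with enough reads, the difference still had the same sign in 1898 of 2076 values (91.4%), with a median of 0.112 in the direction of the exon. It was opposite by 0.1 or more in 38. Of the 226 events read in all tissues, 191 kept 1 sign in all 7.

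Pairs of tissues differed in how far they shared exons. Of exons chosen in lung and readable in spleen, 128 of 179 (71.5%) also met the rule in spleen, the highest share of any pair. The lowest was from cortex to liver, with 47 of 123 (38.2%), although 121 of these had the same sign. Same-sign shares lay between 93.1% and 100% over all pairs. Heart and cortex held most exons that met the rule in 1 of 4 or more readable tissues, 71 and 62 of 267, and lung the fewest, 18. The rule was met in all by 294 events in heart, 322 in cortex and 270 in lung. Liver held 29 such exons, beside 165 events that met the rule there.

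**Figure D2:**
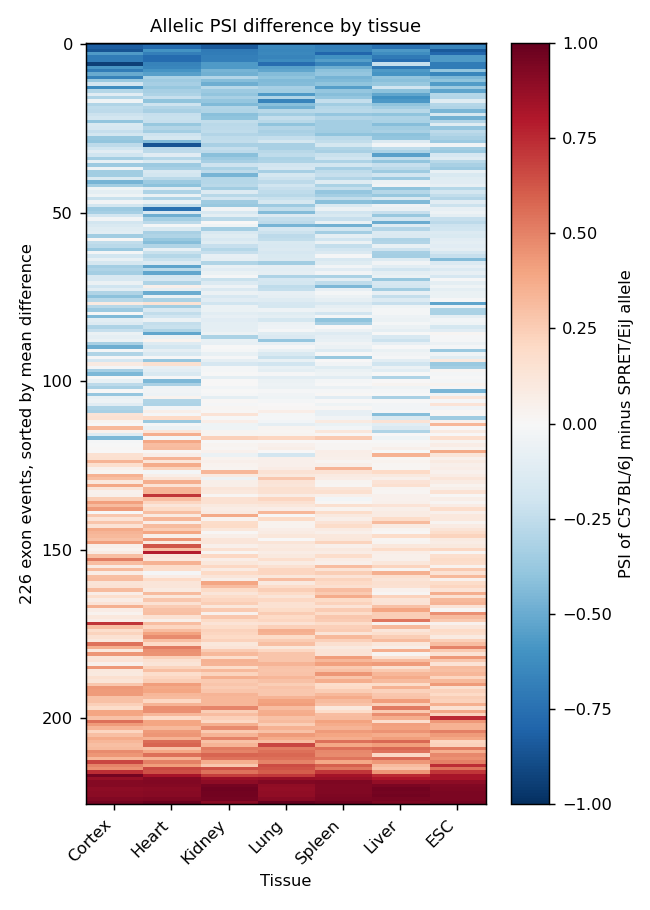
Heat map of the mean PSI difference (C57BL/6J minus SPRET/EiJ, colour scale from -1 to 1) of the 226 exon events (rows) with enough reads in all 7 tissues (columns), sorted by their mean over tissues. Rows at the top and bottom keep 1 colour in every tissue, while rows near the middle are coloured in 1 or a few.

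**Figure D3:**
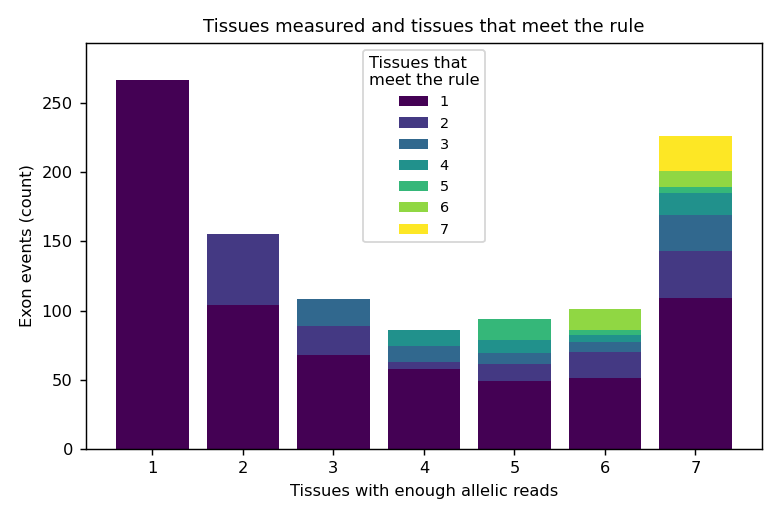
Count of exon events (vertical axis) by the number of tissues with enough allelic reads (horizontal axis), with colours for the number of tissues that meet the rule. Of the 226 events read in 7 tissues, 109 met the rule in 1 and 25 in all.

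Several exons showed a large difference in heart alone. In Rmnd1, which acts in mitochondrial translation, an exon at chromosome 10, 4428369 to 4428465, minus strand, 97 nt had a PSI in heart of 0.778 and 0.846 on the C57BL/6J allele and 0.0326 and 0.0269 on the SPRET/EiJ allele. In the other 6 tissues the C57BL/6J allele reached 0.106 at most and the SPRET/EiJ allele 0.0145. An overlapping exon of Rmnd1 differed by 0.717 in heart. Psma4, an alpha subunit of the proteasome core, had heart values of 0.781 and 0.723 on the C57BL/6J allele and 0.109 and 0.132 on the SPRET/EiJ allele, against at most 0.168 on the C57BL/6J and 0.0443 on the SPRET/EiJ allele elsewhere. Reads of Psma4 may be shared with near-identical copies, which was not tested. Limch1, an activator of non-muscle myosin, was read in 5 tissues, and its exon at chromosome 5, 67036026 to 67036103, plus strand, 78 nt stood in heart at 0.0160 and 0.00731 on the C57BL/6J allele and 0.506 and 0.561 on the SPRET/EiJ allele. In cortex its difference was -0.228, and in kidney, lung and spleen it lay between -0.0174 and -0.00611.

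Mff recruits the fission factor of mitochondria. It gave 8 chosen events at 4 exon starts, 4 of them higher on the C57BL/6J allele, and events of 1 exon share reads. The one with the largest difference, at chromosome 1, 82737013 to 82737087, plus strand, 75 nt, had a PSI of 0.0915 and 0.0668 on the C57BL/6J allele and 0.996 and 0.983 on the SPRET/EiJ allele in heart and of 0.0653 and 0.0794 on the C57BL/6J allele and 0.923 and 0.921 on the SPRET/EiJ allele in lung. In cortex and kidney the differences were -0.186 and -0.272, with the same sign. The SPRET/EiJ allele varied over tissues from 0.224 to 0.996 and the C57BL/6J allele from 0.0142 to 0.0915.

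In cortex, an exon of Nudt13, a nudix hydrolase, at chromosome 14, 20310622 to 20310733, plus strand, 112 nt, had values of 0.295 and 0.241 on the C57BL/6J allele and 0.810 and 0.80 on the SPRET/EiJ allele, while its difference in the other 5 readable tissues lay between -0.0274 and 0.0304. Lsm6, which binds the end of U6 snRNA, had 0.426 and 0.671 on the C57BL/6J allele and 1 in both libraries on the SPRET/EiJ allele in cortex. Its sign was opposite in kidney, lung and spleen, where the differences were 0.241, 0.213 and 0.265. Tbxas1, thromboxane synthase, was higher on the C57BL/6J allele in kidney (0.363) and on the SPRET/EiJ allele in lung (-0.208). Cecr2, a bromodomain protein, differed by -0.351 in spleen and 0.217 in liver, on as few as 22 reads. The ESC clones of Zfp62 differed from each other, with 0 and 0.171 on the C57BL/6J allele and 0.361 and 0.871 on the SPRET/EiJ allele.

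Gene groups differed in how often their events were chosen, beside 1.56% over all events, and these shares are a description. Each group was a list of gene symbol prefixes, so it leaves out other genes of the same function. Chosen genes outside the lists that fit them by function include Lsm6, Mtif2, Rmnd1, Sumo2, Josd2, Mdm2 and Fgfr1op. Zinc finger genes held 44 of 833 events (5.28%), with 30 higher on the C57BL/6J allele. Zfp820 differed by 0.858 in ESC. Immune genes held 38 of 860 events (4.42%). There H2-Q10, a class I histocompatibility gene of liver, had a PSI of 0.991 and 0.992 on the C57BL/6J allele and 0.00132 and 0.000740 on the SPRET/EiJ allele on at least 7580 reads, and Klrc2, a receptor of natural killer cells, differed by -0.799 in spleen. Both belong to families of similar genes, whose reads may be assigned to the wrong copy or allele, so their values are uncertain. Centrosome, centromere and DNA repair genes held 23 of 904 events (2.54%); Cenpa, the centromeric histone H3 variant, was kept on the C57BL/6J allele alone, with 0.111 to 0.772 (median 0.584, 12 libraries) against at most 0.00102. Parpbp differed by 0.930 in ESC, the only tissue in which it could be read.

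Metabolic enzymes held 24 of 1175 events (2.04%), among them Hsd3b2, a steroid dehydrogenase, at 0.974 in kidney, and Ugt1a10, a glucuronosyltransferase whose cluster shares exons, at -0.834. Whether reads of Hsd3b2 were assigned to the right copy or allele was not tested. The mitochondrial list, without Mtif2 and Rmnd1, held 17 of 873 events (1.95%), from 6 genes, with 8 events of Mff and 5 of Mrps17 among them. The ubiquitin and SUMO list, without Sumo2, Josd2 and Mdm2, held 22 of 1519 events (1.45%). Among them were Fbxo41 at -0.719 in cortex and Fbxw11 at -0.682 in kidney, where its C57BL/6J libraries read 0.0308 and 0.50. Membrane transporters and channels held 41 of 3005 events (1.36%); Slc18a1, a vesicular monoamine transporter, differed by 0.940 in kidney and Trpc2 by 0.788 to 0.917 in 6 tissues. Adhesion and cell junction genes held 10 of 742 events (1.35%), among them Cdhr3 at 0.554 in lung.

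Kinases and cell cycle genes held 13 of 974 events (1.33%), with Stk33 at -0.610 in lung and Stk31 at -0.499 in ESC. Small GTPases and their regulators held 12 of 1371 events (0.875%); Arhgap44 differed by 0.572 in kidney and Tbc1d9b by -0.443 in liver. Dhx30 gave both events of the RNA helicases, 2 of 254 events (0.787%), and its larger difference was 0.590, in heart. The list of splicing factors and RNA-binding proteins, which does not hold Lsm6, had the lowest share of the lists, 2 of 684 events (0.292%). The 2 events were of Hnrnpc, an abundant nuclear RNA-binding protein, at -0.669 in cortex, and Celf2 at -0.333 in cortex. In cortex Hnrnpc had 123 and 128 reads on the C57BL/6J allele but 30 and 32 on the SPRET/EiJ allele. Whether its reads were assigned to the right copy or allele was not tested. Long noncoding RNAs made up 5.76% of chosen events matched to RefSeq (59 of 1024), beside 0.608% of all readable events and 1.74% of events with a mean PSI between 0.1 and 0.9 in some tissue.

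The median exon length was 112 nt, beside 117 nt over all readable exons, and 44.4% of chosen exons were a multiple of 3 in length against 42%. Events with intermediate PSI had 49.1%. Exons of at most 30 nt made up 3.46%, beside 1.65% of all and 5.19% of intermediate exons. The largest differences among these short exons were in 9030622O22Rik (0.721 in liver), Hnrnpc (-0.746 in spleen), Triml2 (-0.599 in ESC), Apbb3 (0.583 in ESC) and Tnnt3, a troponin T of fast muscle (0.516 in lung). The exon of Apbb3, which binds the amyloid precursor protein, is 6 nt long. Whether an exon is coding was not analysed here.

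Read depth and agreement with all reads moved with the choice of events, and their part in the result was not tested. The smallest read number of an allele in a library had a median of 54 where the rule was met and 172 over all values, and was under 50 in 46.6% against 16.2%. PSI from allelic reads lay within 0.1 of PSI from all reads in 85.6% of values that met the rule, against 97.8% overall. For its allelic analyses the study kept only events within 0.1 by this comparison, with an FDR limit as well. That filter was not applied in choosing the events here. Host genes had lower TPM, with a median of 14.2 against 20.6 in heart and 20.3 against 33 in cortex. When replicate 1 alone chose the values (2276 of them at 0.3 or more), replicate 2 had the same sign in 90.6% and reached 0.3 in 58%, with the median going from 0.409 to 0.345.

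Just inside the threshold of 0.3 lay Kif20b in ESC (-0.30007), a second event of Rcbtb1 in liver (-0.30020) and Ttll4 in ESC (0.30029). Just outside it lay Alms1 in spleen (0.29999), Sphk2 in kidney (-0.29975) and Tmem176b in liver (-0.29916). Tmem176b had at least 1423 reads and Alms1 at least 25. Known imprinted genes, a list drawn up after the data were seen, supplied 5 events, 4 of Meg3 in cortex and 1 of H13 in heart.

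Fibroblasts were not used to choose the exons, and there most exons had the sign they had in tissues. Of 530 exon events with enough reads in DMSO fibroblasts, 489 (92.3%) had the tissue sign, with a median of 0.168 in that direction. In that direction 231 (43.6%) passed the test. Over all events tested, 1.94% passed (510 of 26332, either direction). A call needed an adjusted p under 0.05 (quasi-binomial model moderated by limma, Benjamini-Hochberg over all events) and a PSI difference of 0.1. Of the passing exons 124 were higher on the C57BL/6J and 107 on the SPRET/EiJ allele, and 1 further exon passed against the tissue sign. With the library as a replicate block 0 exons passed; that fit also found 0 of 200 changed events in simulated counts, so its 0 says nothing about stability. Another rule for the dispersion prior, tried after these counts were seen, gave 283 exons without the block and 285 with it.

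The share rose with the number of tissues. It was 21.7% (68 of 313) for exons that met the rule in 1 tissue, 60% (72 of 120) for 2 or 3 and 93.8% (91 of 97) for 4 to 7. The median of the largest tissue difference was 0.379, 0.463 and 0.603 in the same order, and the differences between these shares were not tested. The 5 events of Mrps17, which overlap, are all in the group of 4 to 7.

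**Figure D4:**
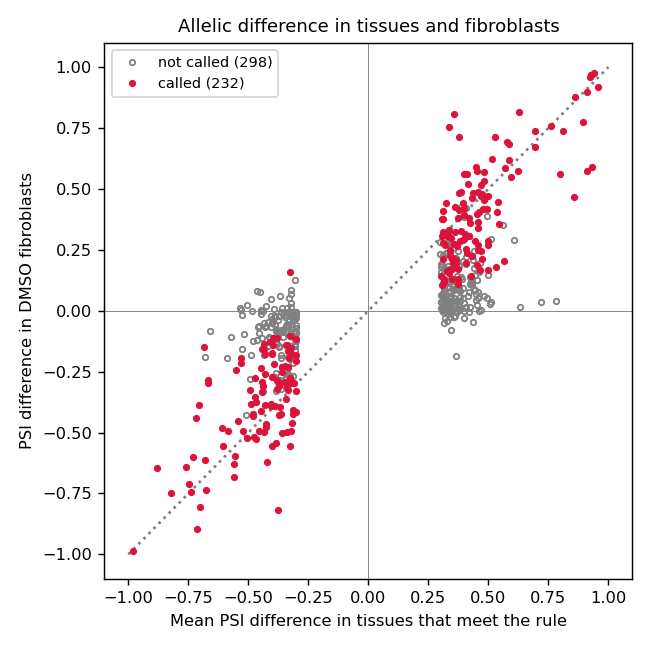
PSI difference between alleles (C57BL/6J minus SPRET/EiJ) in DMSO fibroblasts (vertical axis) against the mean over tissues that meet the rule (horizontal axis) for 530 exon events. Filled points passed the test (232), the dotted line marks equal values, and 452 points had a smaller difference in fibroblasts.

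The largest fibroblast differences were those of Tor1aip1 and Mrps17. The DMSO libraries of Tor1aip1 read 0 in both libraries on the C57BL/6J allele and 0.986 in both libraries on the SPRET/EiJ allele (adjusted p = 2.33e-05, limma-moderated model). Over the 5 events of Mrps17 the difference was 0.966 or near it, and the shortest read 0.969 and 0.990 on the C57BL/6J allele and 0.00829 and 0.00245 on the SPRET/EiJ allele (adjusted p = 1.83e-05). Pkp4 differed by 0.917 (adjusted p = 3.38e-08) and Zscan21 by 0.898 (adjusted p = 7.41e-05). Cenpa, read on at least 1493 reads, had 0.612 and 0.622 on the C57BL/6J allele and 0 in both libraries on the SPRET/EiJ allele. In Mff the values were 0 in both libraries on the C57BL/6J allele and 0.642 and 0.652 on the SPRET/EiJ allele. The SPRET/EiJ values lay between those of kidney and lung, and the C57BL/6J values below the tissue range of 0.0142 to 0.0915.

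Some exons that differed in several tissues were not called in fibroblasts. Sumo2, a ubiquitin-like modifier, met the rule in 3 tissues but differed by 0.00230 in DMSO fibroblasts (adjusted p = 0.899). The long noncoding RNA 2900076A07Rik had heart values of 0.150 and 0.101 on the C57BL/6J allele and 0.971 and 1 on the SPRET/EiJ allele and fibroblast values of 1 and 0.975 on the C57BL/6J allele and 0.989 and 0.943 on the SPRET/EiJ allele (adjusted p = 0.647). Josd2, a deubiquitinase, had a difference of 0.716 in liver and of 0.0619 in fibroblasts, which passed the p threshold (0.00592, adjusted) but not the minimum size. Fgfr1op, a centrosome protein, differed by -0.0664 (adjusted p = 0.483). These 4 were picked by their small fibroblast differences, and a p above the threshold does not show equal alleles. Of the exons of genes that the study itself names, Thyn1 differed by -0.218 (adjusted p = 0.0230), and Apbb3 by 0.423 on at least 22 reads (adjusted p = 0.160).

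Under pladienolide B most exons read again kept the sign of the tissues. Of 297 exon events with enough reads, 270 had the tissue sign and 112 (37.7%) passed in it, beside 1.93% of all events tested. Without 1 of the pladienolide B libraries the share was 24.9% or 22.2%, from a joint fit of both conditions on events read in both. Each table lists only events in which both forms were seen, and each fit needs 20 reads per allele and library, so the conditions hold different events. Which of these left an exon out under the drug was not tested. In the 287 exon events read under both conditions the median size of the difference was 0.159 with DMSO and 0.171 with pladienolide B. The difference was smaller under the drug in 141. A change of the difference itself passed the test in 1 exon, beside 0.0368% of all events (5 of 13585), and 36 exons (12.5%) had an unadjusted p under 0.05, beside 6.01% of all events. That exon was in Cdc26, with DMSO values of 0.978 in both libraries on the C57BL/6J allele and 0.105 and 0.0967 on the SPRET/EiJ allele and pladienolide B values of 0.712 and 0.787 on the C57BL/6J allele and 0.0560 and 0.0596 on the SPRET/EiJ allele (change -0.186, adjusted p = 0.0216). The call was lost with the replicate block, without each of the 4 libraries in turn and with the other dispersion prior. The model tests log odds, so a large change in PSI with one allele near 0, as in Mrps17 (0.975 with DMSO, 0.831 with the drug), need not pass. Some changes larger than that of Cdc26 did not pass, among them -0.331 in another event of Mrps17, -0.373 in Aen and -0.455 in Fbxw11. The difference was smaller under the drug in Mrps17 and larger in Aen and Fbxw11. In Fbxw11 the SPRET/EiJ libraries read 0.351 and 1 under the drug. A missed threshold does not show equal differences.

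**Figure D5:**
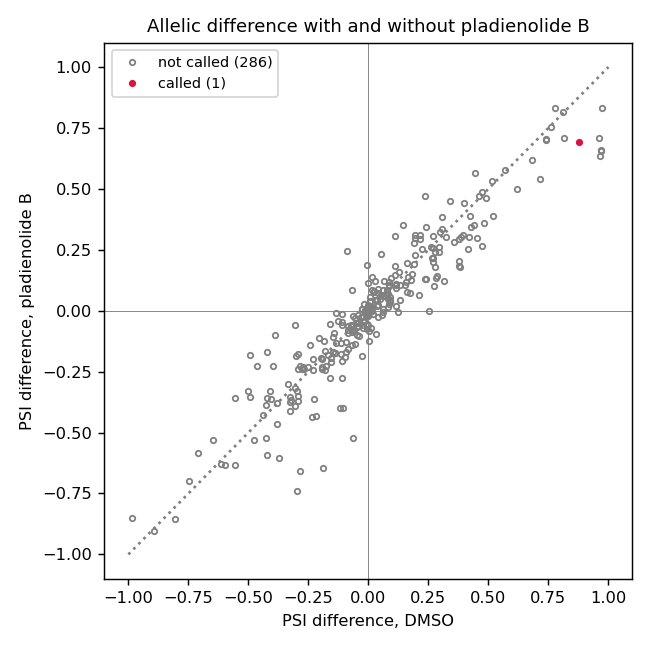
PSI difference between alleles under pladienolide B (vertical axis) against that with DMSO (horizontal axis) for 287 exon events read under both conditions. The filled point is Cdc26, whose change passed the test, and the dotted line marks equal differences.

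With all reads, regardless of allele, 57 of 527 exon events fell under pladienolide B and 11 rose. Over all events, 7.44% fell and 0.128% rose. The largest fall was in 4930523C07Rik, with PSI of 0.846 and 0.860 with DMSO and 0.0647 and 0.132 with pladienolide B (adjusted p = 0.000733, limma-moderated model). Zfp28, a zinc finger gene, had 0.961 and 0.896 with DMSO and 0.279 and 0.251 with pladienolide B, and Gm20517 0.899 and 0.937 with DMSO and 0.340 and 0.193 with pladienolide B. For Mdm2, the ubiquitin ligase of p53, the values were 0.631 and 0.632 with DMSO and 0.0728 and 0.0872 with pladienolide B. Sdccag3 had 0.775 and 0.656 with DMSO and 0.133 and 0.171 with pladienolide B. No exon passed without either pladienolide B library, nor with the replicate number as a replicate block; the other prior with that block gave 79 exons.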

How the data were processed

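Junction reads were counted in 14 tissue and 4 fibroblast libraries. The authors aligned reads with HISAT2 2.0.1 to the C57BL/6J (mm10) and a SPRET/EiJ genome, assigned reads by the smaller edit distance, and counted junctions with rMATS. The deposited values are raw counts per form and replicate, with the 2 replicates in 1 list read by position, form lengths as a score written by rMATS, and TPM that the authors made from all reads. Deposited p-values and inclusion differences of the authors' own comparisons were not used.

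PSI was recomputed from counts and form lengths for autosomal events. Exons and gene lists were chosen with earlier results of these data known. Fibroblasts were tested by a quasi-binomial model per event with dispersions moderated by limma 3.58.1 (R 4.3.3, Python 3.11.15, scipy 1.17.1), an F test and Benjamini-Hochberg adjustment. Only 2 libraries stand behind each group, and those of the fibroblasts come from 1 cell line. Each p-value rests on the spread between these libraries, moderated toward a prior shared by events of similar depth and never set below counting error. It does not measure a spread between animals. Intervals and read minima cover counting error only.

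The rule for which events set the dispersion prior was not settled before real counts were fitted. A first rule (10 or more reads of the rarer form) gave 510, 573, 5 and 4129 calls over all events (DMSO, pladienolide B, change, all reads), and none with the replicate block. A second (smallest fitted count of 2) was adopted after these 0 calls were seen, and gave 759, 725, 1 and 4734. Counts were then simulated at the depths of these libraries with 200 changed events. A first simulation, with the same dispersion for every event, did not separate the rules for the allelic tests, and a second let dispersions differ between events and added the block; its values follow. For all reads, 14.5% of calls were false under the second rule and 1.79% under the first. For DMSO, they were 6.67% and 9.17%, with 98 and 99 changed events found. With the replicate block the second rule gave 27.7% false calls and the first found 0. For pladienolide B, false calls were 10.9% and 7.14%, so both rules can exceed the nominal 5%. The first rule found 49.5%, 19.5%, 20% and 27.5% of changed events in the 4 tests. The main fit was set back to the first rule, with the real counts of both known, and the second stands as an alternative.

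Both alleles of a library come from the same sample, which pairs them; the correlation of their replicate differences was 0.0291 to 0.546 over groups. DMSO and pladienolide B libraries share only a number (correlation 0.00507). Named exons were the 10 with most tissues, 8 specific to 1 tissue, the largest and smallest in fibroblasts, 5 short ones, those nearest the threshold, up to 2 per gene list, those of genes the study names, and those most changed by pladienolide B. RefSeq biotypes matched 1024 of 1037 events (GRCm38.p6). Sequences were not analysed here.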

Additional observations from a re-analysis of the deposited data

Results flagged for a closer look

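The allelic difference of Cdc26 changed under pladienolide B by -0.186 in PSI, the one chosen exon whose change passed the test of the difference. Among the named exons, 5 had both libraries of the alleles apart in opposite directions in different tissues; these differences between tissues were not tested. For Lsm6, higher on the SPRET/EiJ allele in cortex, the difference was 0.241 in kidney, 0.213 in lung and 0.265 in spleen. Zfp62 differed by 0.0891 in cortex and 0.143 in heart, against its direction in ESC. Gm20517 had -0.101 in cortex and -0.0630 in ESC, against heart. Cecr2 had 0.217 in liver, against spleen, and Tbxas1 had -0.208 in lung, against kidney.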

How the results depend on the processing

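The number of exons depended on the rule: 2220 at a difference of 0.2, 319 at 0.5, 547 at 50 reads and 1714 to 1756 with 1 replicate. The share that met the rule in every readable tissue was 13.5%, 23.6%, 22% and 10.4 to 11.5% in the same order, and the share of lengths that are a multiple of 3 was 49.7% at 50 reads and 40.3% at 0.5. With replicate 1 or 2 alone that share was 44.8 to 44.9%. Exons that passed in DMSO fibroblasts made up 25.8% and 79.4% of exons chosen at 0.2 and 0.5, and 38.3 to 52% with 1 library left out. Under pladienolide B the values were 22.7%, 73.7% and 22.2 to 43.6%, the low end without either pladienolide B library. For both conditions, the fits with a library left out were joint, on events read in both, unlike the main fits. With the replicate block all 4 fibroblast shares were 0%. The call of a changed allelic difference also went to 0% with the second prior, a minimum of 0.2 and each library left out. It was 0.139% and 1.35% at 0.2 and 0.5, and 1.05% with the second prior and the replicate block. That combination was not simulated for the change. In the simulated DMSO and pladienolide B tests, 27.7% and 26.3% of its calls were false. For all reads the share was 7.40% at a minimum of 0.2 and 0 to 7.94% with 1 library left out. The cause of the 0 for all reads without either pladienolide B library was not tested. The imprinted list, the sets without ESC or liver, the intermediate exons and the second prior were added after seeing the data. Agreement with the deposited FDR was not run, since it rests on the authors' p-values.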

Other observations

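Further genes met the rule in 6 tissues. Mcfd2, which helps proteins leave the endoplasmic reticulum, reached a difference of 0.934, and Fut8, the core fucosyltransferase, 0.902. These genes were picked after their values were seen.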
